A study of Mus musculus with 6 samples.

Results

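The IL-1 family cytokines, their antagonists and the shared receptor chain were followed here as 7 genes of a deposited count table of 23337 gene symbols: Il1b, Il1a, Il33, Il18, Il1rn, Il18bp and Il1rap. The genes were chosen by name, all 7 were in the table, and all 7 passed the filter on low counts. The table covers 6 libraries of mouse bone marrow-derived macrophages, which are macrophages grown from marrow with the growth factor M-CSF, here for 7 days. The groups, with 2 libraries each, were cells lacking Ch25h (Ch25hKO), cells lacking both liver X receptor genes Nr1h3 and Nr1h2 (LXRdKO), and wild-type cells (WT). All mice were of strain C57BL/6, and LPS from the bacterial outer membrane was given to all cultures at 100 ng/ml for 8 h before RNA was taken. No unstimulated culture is among the libraries, so the values give levels after LPS and not the response to it. Ch25h encodes cholesterol 25-hydroxylase, which makes 25-hydroxycholesterol, and the liver X receptors are nuclear receptors that oxysterols activate. The comparisons ask how the transcripts of stimulated macrophages differ when the enzyme or the receptors are missing.

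IL-1β and IL-1α both signal through the receptor IL1R1 together with its partner chain, the product of Il1rap. IL-1β is made as an inactive precursor that caspase-1 cuts in inflammasomes, whereas the IL-1α precursor is itself active and serves as an alarm signal from damaged cells. The product of Il1rn occupies the same receptor without recruiting the partner chain. IL-18 is likewise cut by caspase-1 and is bound in solution by IL-18-binding protein, the product of Il18bp. IL-33 is a nuclear alarm protein, best known from stromal, epithelial and endothelial cells, and signals through ST2 and the same partner chain. Transcript levels alone say nothing of cutting or release.

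Il1b and Il1a lie beside each other on mouse chromosome 2 and are read from the same strand, with 54.6 kb between them (GRCm38, GENCODE M21). Il1b spans chr2:129364570-129371139 and Il1a spans chr2:129299610-129309972, both on the minus strand. The bases just before their start sites are shown because both genes rose in Ch25hKO, while in LXRdKO Il1a fell and Il1b did not. Those of Il33 are shown because it had the largest decrease and has more than 1 annotated start. Each stretch is the 250 bases before a RefSeq start site (GRCm38.p6), 5′ to 3′ in the direction of transcription, and capitals mark every match to a searched motif.
Il1b, chr2:129371140-129371389, minus strand: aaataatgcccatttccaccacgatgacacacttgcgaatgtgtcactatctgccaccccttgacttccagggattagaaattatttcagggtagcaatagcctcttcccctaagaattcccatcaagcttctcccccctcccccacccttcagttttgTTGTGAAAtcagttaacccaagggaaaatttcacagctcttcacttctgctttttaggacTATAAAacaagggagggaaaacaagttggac
Il1a, chr2:129309973-129310222, minus strand: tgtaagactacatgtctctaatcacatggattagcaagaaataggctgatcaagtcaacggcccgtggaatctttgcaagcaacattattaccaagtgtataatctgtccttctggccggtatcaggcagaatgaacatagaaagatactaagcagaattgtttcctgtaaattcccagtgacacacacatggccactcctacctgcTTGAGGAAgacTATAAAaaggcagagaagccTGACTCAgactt
Il33, upstream start, chr19:29924863-29925112, plus strand: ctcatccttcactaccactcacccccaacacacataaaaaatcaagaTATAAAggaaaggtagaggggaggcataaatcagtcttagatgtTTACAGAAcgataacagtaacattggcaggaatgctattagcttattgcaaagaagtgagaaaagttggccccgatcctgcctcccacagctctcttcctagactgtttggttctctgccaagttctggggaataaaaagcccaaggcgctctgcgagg
Il33, downstream start, chr19:29945540-29945789, plus strand: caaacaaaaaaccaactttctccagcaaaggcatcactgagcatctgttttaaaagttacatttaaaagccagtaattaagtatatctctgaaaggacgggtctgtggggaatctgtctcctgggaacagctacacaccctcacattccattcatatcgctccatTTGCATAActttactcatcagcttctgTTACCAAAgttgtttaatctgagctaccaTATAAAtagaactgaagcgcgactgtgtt

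The motifs searched on both strands were the TATA box (TATAAA), AP-1 (TGANTCA), C/EBP (TTNNGNAA), PU.1 (GAGGAA), the interferon-stimulated response element (ISRE), the sterol response element (TCACNCCAC), the NF-κB consensus and the LXR element with a spacer of 4 bases (DR4). The Il1b stretch held a TATA box at 31 to 26 bases before the start and a C/EBP match at 91 to 84 bases. The Il1a stretch held a TATA box at 32 to 27 bases, an AP-1 match at 12 to 6 bases, and a C/EBP match at 43 to 36 bases that overlaps a PU.1 match at 41 to 36 bases. The downstream Il33 stretch held a TATA box at 29 to 24 bases and C/EBP matches at 85 to 78 and 58 to 51 bases. The upstream Il33 stretch held TATAAA far from the start, at 203 to 198 bases, and a C/EBP match at 159 to 152 bases. Among all 32851 such stretches, 12.4% held TATAAA, 36.8% the C/EBP letters, 23.3% the PU.1 letters and 6.75% the AP-1 letters. None of the 10 stretches of the 7 genes held the NF-κB consensus, which 7.25% of all stretches held, or the ISRE, which 2.98% held. None held the sterol response element or the LXR element, which 1.05% and 0.0335% of all stretches held. A match or its absence is a description of these letters only, and gene-level counts do not show which start was used.

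Total counts ranged from 41650513 to 45872964 per library. Whether the 2 libraries of a genotype stem from different mice or cultures is not stated in the labels. The p-values therefore rest on library-to-library spread alone, and that spread may be technical. The labels name each group's genes, and the counts follow them: Ch25h stood at 1.61% of the WT level in Ch25hKO, and Nr1h3 and Nr1h2 at 5.64% and 2.59% in LXRdKO. The macrophage markers, 8 of 8 measured, summed to 16230 and 16810 CPM (counts divided by scaled library size) in Ch25hKO, 19666 and 19495 CPM in LXRdKO and 17728 and 16212 CPM in WT. Markers of B cells summed to at most 1.08 CPM and those of T and NK cells to at most 2.99 CPM in any library.

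The family members spanned a wide range of abundance. Per kilobase of merged exon, Il1b averaged 2108 CPM per kb in Ch25hKO, 1562 in LXRdKO and 1402 in WT, and Il1rn averaged 1306, 1368 and 1436 CPM per kb in the same groups. By this measure Il1b ranked 12 in Ch25hKO, 19 in LXRdKO and 21 in WT among the 11629 tested genes whose length could be matched. Which of these genes stood higher turned with the measure of length in LXRdKO, and between the 2 libraries of a group under one of the measures in Ch25hKO and in WT, so no order is given for them. Per kilobase of the longest transcript, Il1b averaged 2965, 2196 and 1972 CPM per kb and Il1rn 2830, 2965 and 3113 CPM per kb in Ch25hKO, LXRdKO and WT. Il1a followed at 466, 225 and 370 CPM per kb in Ch25hKO, LXRdKO and WT. Il18bp was at 66.5, 96.8 and 74.5 and Il18 at 23.9, 31.7 and 26 CPM per kb. Il33 and Il1rap were the least abundant, at 1.27 to 3.58 and 1.64 to 1.91 CPM per kb.

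**Figure D1:**
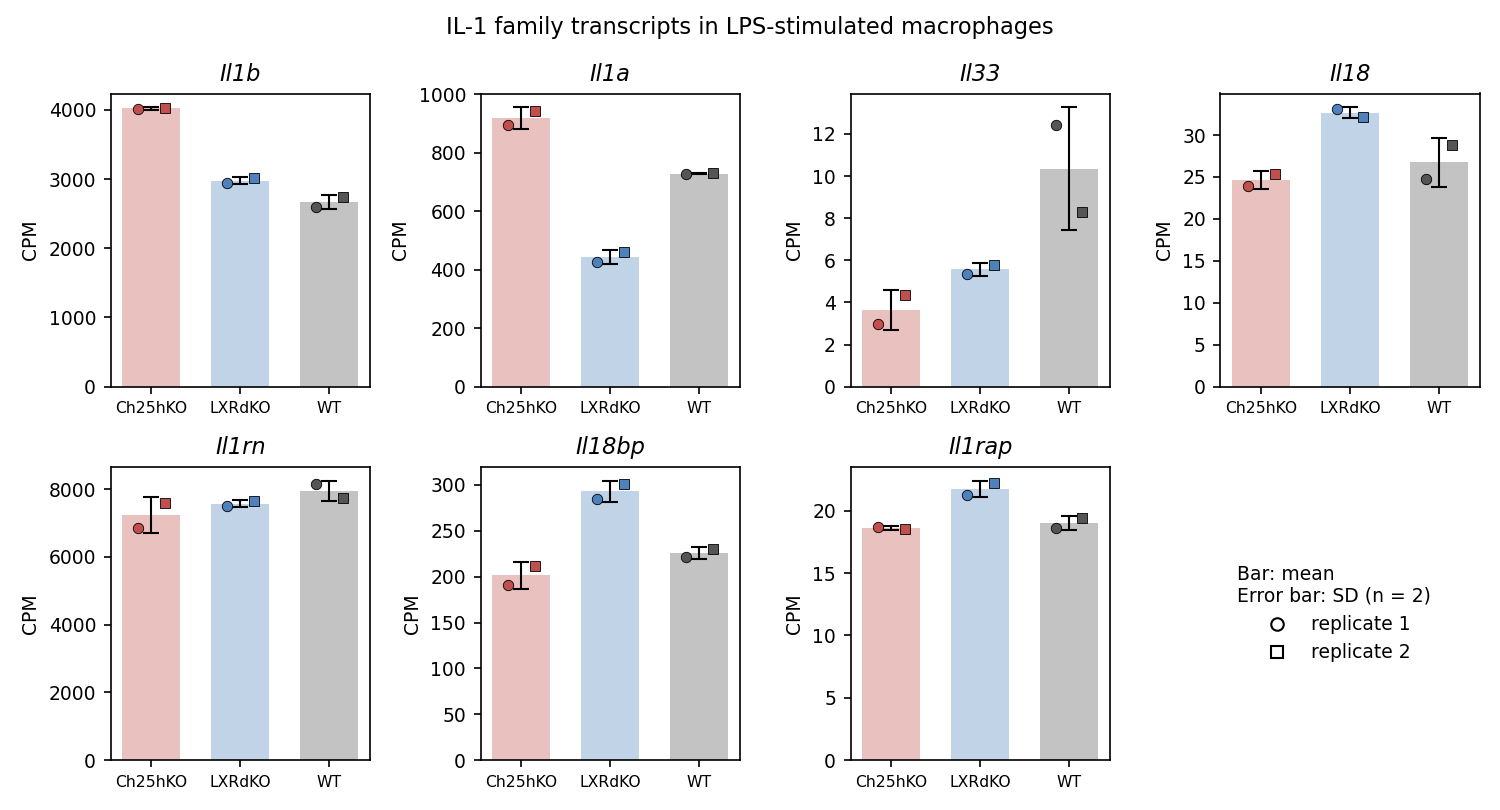
Level of each of the 7 genes in CPM (linear axes from 0) in Ch25hKO, LXRdKO and WT macrophages. Points are the 2 libraries of a group, bars their mean and error bars the SD; Il1b is highest in Ch25hKO at 4010 and 4031 CPM, and Il33 is highest in WT with its libraries at 12.4 and 8.27 CPM.

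Il1b, the gene of IL-1β, was at 4010 and 4031 CPM in Ch25hKO, at 2942 and 3014 CPM in LXRdKO, and at 2603 and 2744 CPM in WT. The libraries of the 3 groups did not overlap, and the Ch25hKO libraries stood highest. Il1b rose 1.5-fold in Ch25hKO over WT (0.59 ± 0.06, log2 fold change ± SE, n = 2 libraries per group; edgeR adjusted p = 3.49e-07). That call held in all 15 alternatives, with values from 0.55 to 0.61. In LXRdKO the log2 fold change over WT was 0.16 ± 0.06 (edgeR adjusted p = 0.0486), just inside the threshold of 0.05. It no longer passed in 9 of 14 alternative analyses, among them the omission of any 1 library other than WT replicate 2. Tested directly, Il1b was lower in LXRdKO than in Ch25hKO (-0.43 ± 0.06, edgeR adjusted p = 9.77e-06). Bulk RNA cannot tell a change in the share of expressing cells from a change in RNA per cell, here or for the genes below. An antisense gene, Il1bos, overlaps the start of Il1b in the annotation, and with no strand setting given its reads cannot be told apart from those of Il1b.

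Il1a, the gene of IL-1α, was at 894 and 945 CPM in Ch25hKO, at 428 and 461 CPM in LXRdKO, and at 728 and 731 CPM in WT. It was highest in Ch25hKO and lowest in LXRdKO, with no overlap between any groups. Il1a rose in Ch25hKO over WT by 0.33 ± 0.06 (edgeR adjusted p = 0.000138) and fell in LXRdKO against WT by 0.72 ± 0.06 (edgeR adjusted p = 3.6e-08), both on the log2 scale. Between the knockouts the difference was 2.07-fold, lower in LXRdKO (-1.05 ± 0.06, edgeR adjusted p = 1.2e-10). All of these calls held in every alternative run. Il1a differed from its neighbour Il1b in LXRdKO, where the ratio of Il1b to Il1a counts was 6.88 and 6.54, against 3.57 and 3.75 in WT. The noncoding gene Gm14023 overlaps Il1a on the opposite strand and had 11372 counts over all libraries, against 183240 for Il1a. Its log2 fold changes against WT were 0.73 ± 0.21 in Ch25hKO (edgeR adjusted p = 0.0544) and -0.45 ± 0.22 in LXRdKO (edgeR adjusted p = 0.204), neither past the threshold. Between the knockouts it did pass, lower in LXRdKO (-1.18 ± 0.21, edgeR adjusted p = 0.0142). The part of shared reads in the Il1a result was not tested.

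The summed level of neutrophil markers ran in the same order as Il1a, and S100a8 set that order. The 8 of 9 listed markers that were in the table summed to 52.4 and 55.2 CPM in Ch25hKO, 19.4 and 19.9 CPM in LXRdKO, and 40.5 and 39.6 CPM in WT. Nearly all of this was S100a8, at 16.4 to 50.4 CPM, while the neutrophil elastase gene Elane had 1 count over all 6 libraries. S100a9 had the same order by group mean, at 2.76 CPM in Ch25hKO, 1.84 CPM in LXRdKO and 2.67 CPM in WT. Its Ch25hKO and WT libraries overlapped. Ngp and Camp ran differently. Ngp averaged 0.586 CPM in Ch25hKO, 0.398 CPM in LXRdKO and 0.82 CPM in WT, and Camp averaged 0.931, 0.806 and 0.592 CPM in the same groups. Of the 5 markers tested, 1 rose in Ch25hKO, where 19.8% of all tested genes were called higher. In LXRdKO 4 fell, where 15.5% of all tested genes were called lower. The tested markers include Mpo, with 0 to 12 counts per library. The part of these markers in the Il1a result was not tested.

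Il33 showed the largest decrease of the 7 genes. It was at 2.98 and 4.33 CPM in Ch25hKO, at 5.36 and 5.77 CPM in LXRdKO, and at 12.4 and 8.27 CPM in WT. No groups overlapped, and the WT libraries differed more from each other than those of either knockout. Il33 fell 2.82-fold in Ch25hKO (-1.5 ± 0.21, edgeR adjusted p = 0.000347), a call that held in all 15 alternatives, with changes from -1.79 to -1.18. It fell 1.86-fold in LXRdKO (-0.89 ± 0.2, edgeR adjusted p = 0.00718), but not when LXRdKO replicate 1 was omitted (-0.84, edgeR adjusted p = 0.0637), and its size was -0.57 when WT replicate 1 was omitted. The difference between the knockouts did not pass (0.6 ± 0.23, edgeR adjusted p = 0.0623), although it passed in 7 of 14 alternatives, among them the omission of either WT library or of Ch25hKO replicate 2 (0.9). When Ch25hKO replicate 1 was omitted, the difference was 0.36 (edgeR adjusted p = 0.286). The counts behind these values are the smallest of the set, from 129 to 550 per library.

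Il33 lies on chromosome 19 (chr19:29925114-29960718), 4.51 Mb from Ch25h. Marker levels of other cells were read beside it. Stromal markers, 8 of 8 in the table, summed to 34.6 and 32.2 CPM in Ch25hKO, 17.7 and 15.9 CPM in LXRdKO and 14.9 and 13.5 CPM in WT, so they were highest where Il33 was lowest. Endothelial markers, 5 of 5, summed to 58 and 60.3 CPM in Ch25hKO, 104 and 108 CPM in LXRdKO and 87.8 and 81.3 CPM in WT, most of it Kdr. Pecam1 averaged 5.15, 6.53 and 10.6 CPM in Ch25hKO, LXRdKO and WT, the order of Il33. Kdr, at 50.6, 95.7 and 69.8 CPM, and Cdh5, at 3.21, 3.9 and 3.82 CPM, did not run in that order. Dendritic cell markers, 8 of 8, summed to 13.4 and 14.3 CPM in Ch25hKO, 22 and 24 CPM in LXRdKO and 28.7 and 27.8 CPM in WT, the order of Il33. None of the 3 genes that made up most of this sum ran in that order by group mean. Xcr1 averaged 4.79, 13.8 and 13.6 CPM, Clec9a 2.01, 3.62 and 3.17 CPM, and Ccr7 5.69, 4.33 and 9.83 CPM in Ch25hKO, LXRdKO and WT. Mast cell and basophil markers, 6 of 6, were lower in both knockouts than in WT, at 49.5 and 52.5 CPM in Ch25hKO, 52 and 54.7 CPM in LXRdKO, and 69.8 and 63.9 CPM in WT. Nearly all of this was Hdc, while the mast cell protease genes Mcpt4 and Tpsb2 were at 0 in every library. The part of these markers in the Il33 result was not tested. Il1rl1, which encodes the IL-33 receptor ST2, had 28 counts over all 6 libraries and was below the filter.

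Il18, the gene of IL-18, was at 23.9 and 25.4 CPM in Ch25hKO, at 33.1 and 32.2 CPM in LXRdKO, and at 24.7 and 28.8 CPM in WT. The LXRdKO libraries stood above all others, and those of Ch25hKO and WT overlapped. Il18 rose in LXRdKO over WT (0.29 ± 0.07, edgeR adjusted p = 0.00491), but not when LXRdKO replicate 1 was omitted (0.27, edgeR adjusted p = 0.0619). In Ch25hKO it did not pass (-0.12 ± 0.07, edgeR adjusted p = 0.219), but it passed without WT replicate 1 (-0.23, edgeR adjusted p = 0.0114) and was near 0 without WT replicate 2 (-0.02, edgeR adjusted p = 0.875). Il18 was higher in LXRdKO than in Ch25hKO by 0.41 ± 0.07 (edgeR adjusted p = 0.000204). The annotation places Bco2 and Tex12 across parts of Il18 on the opposite strand.

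Il1rn, the gene of the IL-1 receptor antagonist, did not pass the test in any comparison. It was at 6852 and 7603 CPM in Ch25hKO, at 7500 and 7645 CPM in LXRdKO, and at 8159 and 7743 CPM in WT. Both knockouts stood below WT in every library, and they overlapped each other. The log2 fold change was -0.14 ± 0.07 in Ch25hKO (edgeR adjusted p = 0.106) and -0.07 ± 0.07 in LXRdKO (edgeR adjusted p = 0.447). In Ch25hKO it passed in 4 of 15 alternatives, including without WT replicate 2 (-0.19, edgeR adjusted p = 0.0243), and the omission of single libraries gave -0.21 to -0.07.

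Il18bp, which encodes the soluble inhibitor of IL-18, was at 191 and 212 CPM in Ch25hKO, at 285 and 301 CPM in LXRdKO, and at 221 and 230 CPM in WT. No groups overlapped, with LXRdKO highest and Ch25hKO lowest. Il18bp rose 1.3-fold in LXRdKO (0.38 ± 0.06, edgeR adjusted p = 6.88e-05), in every alternative run. It fell in Ch25hKO by 0.16 ± 0.06 on the log2 scale (edgeR adjusted p = 0.0327). It did not pass in 4 of 15 alternatives, which include the omission of Ch25hKO replicate 1 (-0.1, edgeR adjusted p = 0.367) and of either LXRdKO library. Il18bp was higher in LXRdKO than in Ch25hKO by 0.54 ± 0.06 (edgeR adjusted p = 6.71e-07). The end of Numa1, on the opposite strand, overlaps that of Il18bp.

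Il1rap, the gene of the partner chain shared by the receptors for IL-1 and IL-33, was at 18.7 and 18.5 CPM in Ch25hKO, at 21.3 and 22.2 CPM in LXRdKO, and at 18.6 and 19.4 CPM in WT. The Ch25hKO and WT libraries overlapped, and those of LXRdKO stood above them. The test in Ch25hKO gave -0.03 ± 0.07 (edgeR adjusted p = 0.763). In LXRdKO, Il1rap rose by 0.2 ± 0.07 over WT (edgeR adjusted p = 0.0359) and by 0.23 ± 0.07 over Ch25hKO (edgeR adjusted p = 0.0139). The difference from WT did not pass in 9 of 14 alternatives, among them the omission of any 1 library other than WT replicate 2. The difference from Ch25hKO did not pass in 4 of 14, which include the omission of either Ch25hKO library or of LXRdKO replicate 2.

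**Figure D2:**
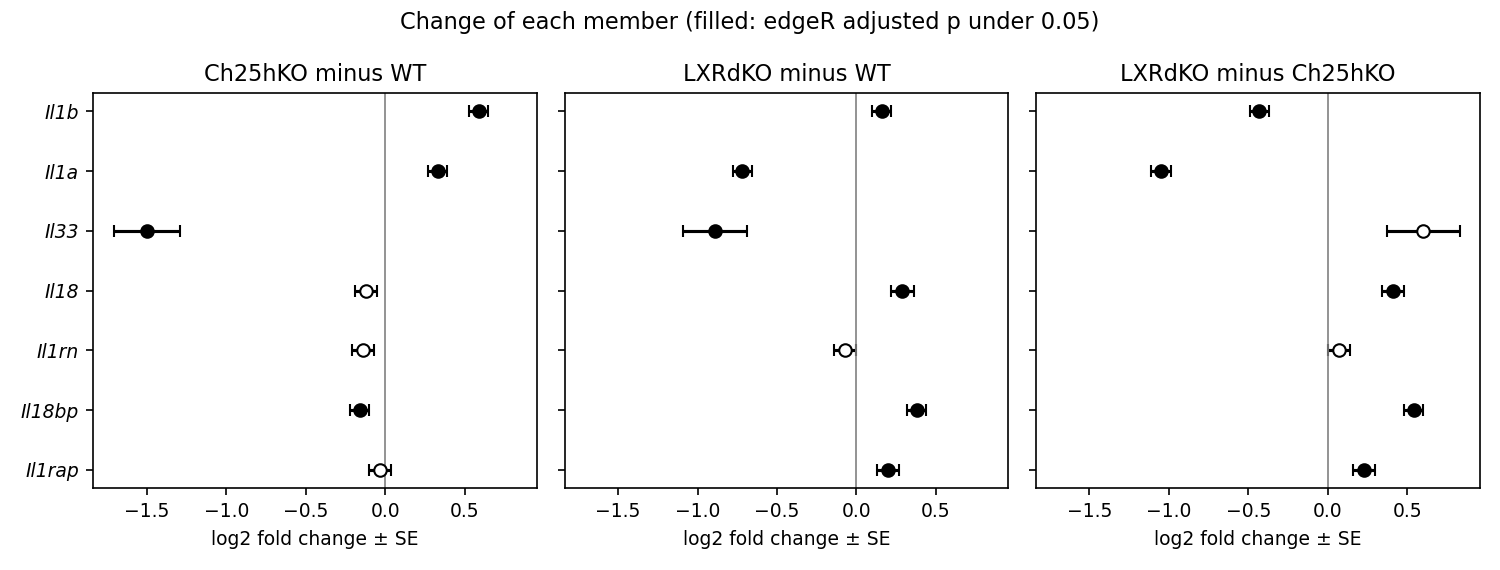
Log2 fold change of each gene, with its standard error, in Ch25hKO minus WT, LXRdKO minus WT and LXRdKO minus Ch25hKO. Filled points have an edgeR adjusted p under 0.05; Il1a lies above 0 in Ch25hKO (0.33) and below 0 in LXRdKO (-0.72), and Il33 lies furthest below 0 in both knockouts.

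Counted over the set in Ch25hKO against WT, 2 of the 7 genes rose and 2 fell, where 39.3% of all 12923 tested genes were called, 19.8% higher and 19.5% lower. A single gene, Il33, was called lower when Ch25hKO replicate 1 or either LXRdKO library was omitted. In LXRdKO against WT, 4 rose and 2 fell, where 31.8% of all tested genes were called, 16.4% higher and 15.5% lower. The omission of LXRdKO replicate 1 left 1 higher and 1 lower, and that of LXRdKO replicate 2, WT replicate 1 or either Ch25hKO library left 2 higher. Between LXRdKO and Ch25hKO, 3 were higher and 2 lower, where 37.9% were called, 19.3% higher and 18.6% lower. The median log2 fold change of the 7 genes was -0.12 in Ch25hKO and 0.16 in LXRdKO against WT, beside medians of 0.01 and 0 over all tested genes. Both knockouts were set against the same WT libraries.

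The balance of ligand to antagonist transcripts was read within each library, where scaling between libraries plays no part. The ratio of Il1b to Il1rn counts was 0.585 and 0.53 in Ch25hKO, 0.392 and 0.394 in LXRdKO, and 0.319 and 0.354 in WT. It was 1.66-fold the WT ratio in Ch25hKO and 1.17-fold in LXRdKO, and the groups did not overlap. The ratio of Il1a to Il1rn counts was 0.131 and 0.124 in Ch25hKO, 0.057 and 0.0603 in LXRdKO, and 0.0893 and 0.0944 in WT, again without overlap, so it stood above WT in one knockout and below it in the other. The ratio of Il18 to Il18bp counts was 0.125 and 0.12 in Ch25hKO, 0.116 and 0.107 in LXRdKO, and 0.112 and 0.126 in WT, and here both knockouts overlapped WT. With 2 libraries against 2, a two-sided exact permutation test cannot give less than p = 0.333, which was its value wherever the groups did not overlap.

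**Figure D3:**
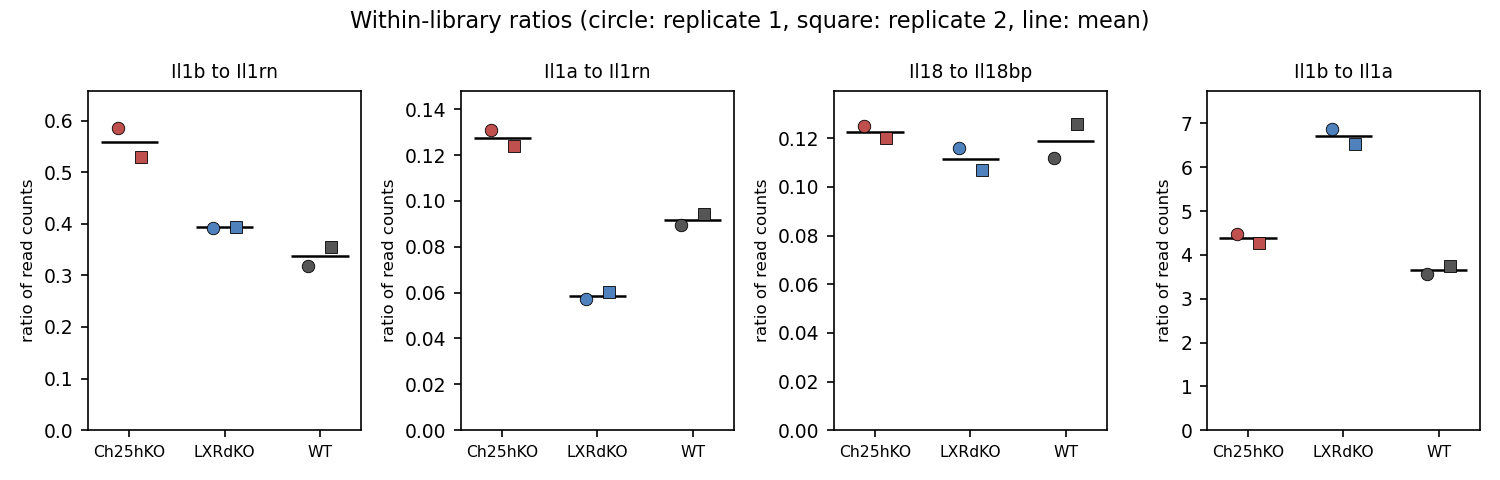
Ratio of read counts of 2 genes within each library, for Il1b to Il1rn, Il1a to Il1rn, Il18 to Il18bp and Il1b to Il1a (linear axes from 0). Points are libraries and lines group means; Il1b to Il1rn is highest in Ch25hKO (0.585 and 0.53), Il1b to Il1a is highest in LXRdKO (6.88 and 6.54), and Il18 to Il18bp overlaps between each knockout and WT.

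Of the 5 other ligand genes of the family, 3 were tested, and the IL-36 genes Il1f9 and Il1f6 fell in LXRdKO. Il1f9, which encodes IL-36γ, was at 20.4 and 20 CPM in Ch25hKO, at 5.9 and 5.68 CPM in LXRdKO, and at 16.9 and 16.9 CPM in WT. The LXRdKO libraries were far below the rest, and those of Ch25hKO were slightly above WT. Il1f9 fell in LXRdKO (-1.55 ± 0.08, edgeR adjusted p = 2.72e-10) and rose in Ch25hKO (0.26 ± 0.07, edgeR adjusted p = 0.00863), but not with DESeq2 or when Ch25hKO replicate 1 was omitted (0.23, edgeR adjusted p = 0.0953). Il1f6, which encodes IL-36α, was at 9.94 and 12 CPM in Ch25hKO, at 4.72 and 4.18 CPM in LXRdKO, and at 9.27 and 9.32 CPM in WT. It fell in LXRdKO (-1.06 ± 0.12, edgeR adjusted p = 1.57e-06) and did not pass in Ch25hKO (0.24 ± 0.1, edgeR adjusted p = 0.0751), although it passed without Ch25hKO replicate 1 (0.36, edgeR adjusted p = 0.0367) and was 0.1 without Ch25hKO replicate 2 (edgeR adjusted p = 0.613). In LXRdKO against Ch25hKO, Il1f9 differed by -1.8 ± 0.08 and Il1f6 by -1.3 ± 0.11 (edgeR adjusted p = 1.01e-11 and 5.5e-08). Il1f5, the gene of the IL-36 receptor antagonist, was the third gene tested. It had 2 and 3 counts in Ch25hKO, 1 and 4 in LXRdKO, and 12 and 15 in WT, and passed the filter only through its WT counts, so its difference is given as these counts alone. Il1f8 had 1 count in all and Il1f10 had 32, and neither was tested.

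Of the 9 other receptors of the family, 5 were tested. Il18rap, a chain of the IL-18 receptor, was at 0.9 and 1.24 CPM in Ch25hKO, at 3.42 and 4.59 CPM in LXRdKO, and at 2.25 and 1.59 CPM in WT. It rose in LXRdKO (1.06 ± 0.2, edgeR adjusted p = 0.000485) and fell in Ch25hKO (-0.84 ± 0.24, edgeR adjusted p = 0.0102), but not when Ch25hKO replicate 1 (-0.64) or WT replicate 1 (-0.57) was omitted. The other IL-18 receptor chain, Il18r1, had 8 counts over all libraries. Il1rl2, the IL-36 receptor gene, rose in Ch25hKO (0.64 ± 0.14, edgeR adjusted p = 0.00161). Il1r1, the signalling receptor of IL-1, was at 16.9 and 17.9 CPM in Ch25hKO, at 20.3 and 20.7 CPM in LXRdKO, and at 20 and 19.9 CPM in WT. It fell in Ch25hKO (-0.2 ± 0.07, edgeR adjusted p = 0.0298), but not in 5 of 15 alternatives, which include the omission of either Ch25hKO library or of WT replicate 1. The decoy receptor gene Il1r2 was called higher in LXRdKO (0.58 ± 0.22, edgeR adjusted p = 0.0498), but not in 9 of 13 alternatives, among them the omission of any 1 library other than WT replicate 2, and its size was 0.29 without WT replicate 1. In all, 1 receptor rose and 2 fell in Ch25hKO (neither fall passed without Ch25hKO replicate 1 or WT replicate 1, and 1 did without Ch25hKO replicate 2), where 39.3% of all tested genes were called. In LXRdKO, where 31.8% of all tested genes were called, 2 rose and the other 3 did not pass, with 1 rising when any 1 library other than WT replicate 2 was omitted. In LXRdKO against Ch25hKO, where 37.9% of all tested genes were called, 3 were higher (1 without LXRdKO replicate 2) and 1 lower, among them Il18rap at 1.9 ± 0.22 and Il1rl2 at -0.6 ± 0.14 (edgeR adjusted p = 1.72e-06 and 0.00244). The inhibitory receptor gene Sigirr did not pass in either.

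Downstream of the receptors, all 20 signalling genes were tested. In Ch25hKO, 6 rose and 1 fell, together a share near the 39.3% called over all tested genes. By direction, 19.8% of all tested genes were called higher and 19.5% lower. The median of the 20 genes was 0.01, beside 0.01 over all tested genes. Irak3, an inhibitory kinase of the pathway, rose (0.65 ± 0.05, edgeR adjusted p = 1.99e-08), as did Nfkbia, which encodes the inhibitor IκBα (0.31 ± 0.05, edgeR adjusted p = 9.89e-05). The ubiquitin ligase gene Peli1 fell by 0.42 ± 0.06 on the log2 scale (edgeR adjusted p = 1.19e-05). Ikbkb, the gene of the kinase IKKβ, rose (0.22 ± 0.05, edgeR adjusted p = 0.00331), but not when Ch25hKO replicate 1 was omitted (0.18). Without Ch25hKO replicate 2, 3 rose, and without WT replicate 2, 3 fell. In LXRdKO, 6 rose and 4 fell, beside 31.8% of all tested genes called, 16.4% higher and 15.5% lower. The median was -0.01, beside 0 over all tested genes. The largest change was in Nfkbiz, which encodes the NF-κB cofactor IκBζ, at 104 and 106 CPM in LXRdKO, against 238 and 216 CPM in WT (-1.12 ± 0.06, edgeR adjusted p = 1.09e-10), while it was at 226 and 224 CPM in Ch25hKO. Tnfaip3, the gene of the inhibitor A20, also fell in LXRdKO (-0.51 ± 0.07, edgeR adjusted p = 1.17e-05), and Irak3 and the adaptor gene Myd88 rose (0.34 ± 0.05 and 0.29 ± 0.06). Without LXRdKO replicate 2, 3 rose, and without LXRdKO replicate 1, 2 fell. In LXRdKO against Ch25hKO, 3 were higher (1 without LXRdKO replicate 2) and 6 lower, beside 37.9% called over all tested genes, with Nfkbiz at -1.1 ± 0.06, Tnfaip3 at -0.65 ± 0.07, Nfkbia at -0.5 ± 0.05 and Irak3 at -0.31 ± 0.05 (edgeR adjusted p from 4.93e-11 to 7.62e-05).

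Of 16 genes for the cutting and release of the cytokines, all tested, 2 rose and 9 fell in Ch25hKO, beside 19.8% of all tested genes called higher and 19.5% lower. Their median was -0.2, beside 0.01 over all tested genes. The 2 that rose were Txnip (0.37 ± 0.06) and Pycard (0.36 ± 0.06), edgeR adjusted p = 5.81e-05 and 0.000147. Casp1, the gene of the protease that cuts IL-1β and IL-18, was at 606 and 616 CPM in Ch25hKO, at 577 and 603 CPM in LXRdKO, and at 843 and 755 CPM in WT. It fell in Ch25hKO by 0.39 ± 0.06 (edgeR adjusted p = 5.12e-05) and in LXRdKO by 0.44 ± 0.06 (edgeR adjusted p = 2.13e-05) on the log2 scale. The DNA sensor gene Aim2 was at 104 and 106 CPM in Ch25hKO, at 172 and 188 CPM in LXRdKO, and at 162 and 156 CPM in WT, and fell in Ch25hKO (-0.6 ± 0.06, edgeR adjusted p = 1.45e-07). P2rx7, the gene of an ATP-gated channel that can trigger release of IL-1β, fell in Ch25hKO (-0.59 ± 0.06, edgeR adjusted p = 5.55e-07) and LXRdKO (-0.49 ± 0.06, edgeR adjusted p = 6.53e-06). Capn2, a calpain gene of the protease group that cuts the IL-1α precursor, fell in Ch25hKO (-0.79 ± 0.07, edgeR adjusted p = 1.07e-06). In LXRdKO, 5 of the 16 rose and 3 fell, beside 16.4% of all tested genes called higher and 15.5% lower, with a median of 0, led by Txnip (1.56 ± 0.06) and the inflammasome adaptor gene Pycard (0.81 ± 0.06), edgeR adjusted p = 1.6e-12 and 1.7e-08. Without LXRdKO replicate 2, 3 rose, and without WT replicate 2, 5 fell. In LXRdKO against Ch25hKO, 10 were higher and 2 lower (1 without LXRdKO replicate 1 or either Ch25hKO library), beside 19.3% of all tested genes called higher and 18.6% lower. Txnip differed by 1.18 ± 0.06, Aim2 by 0.78 ± 0.06, the pyrin gene Mefv by 0.47 ± 0.06 and Pycard by 0.45 ± 0.06 (edgeR adjusted p from 1.91e-11 to 9.9e-06). Nlrp3, the gene of the inflammasome sensor, did not pass in Ch25hKO (0.02 ± 0.06) or LXRdKO (0.04 ± 0.06).

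**Figure D4:**
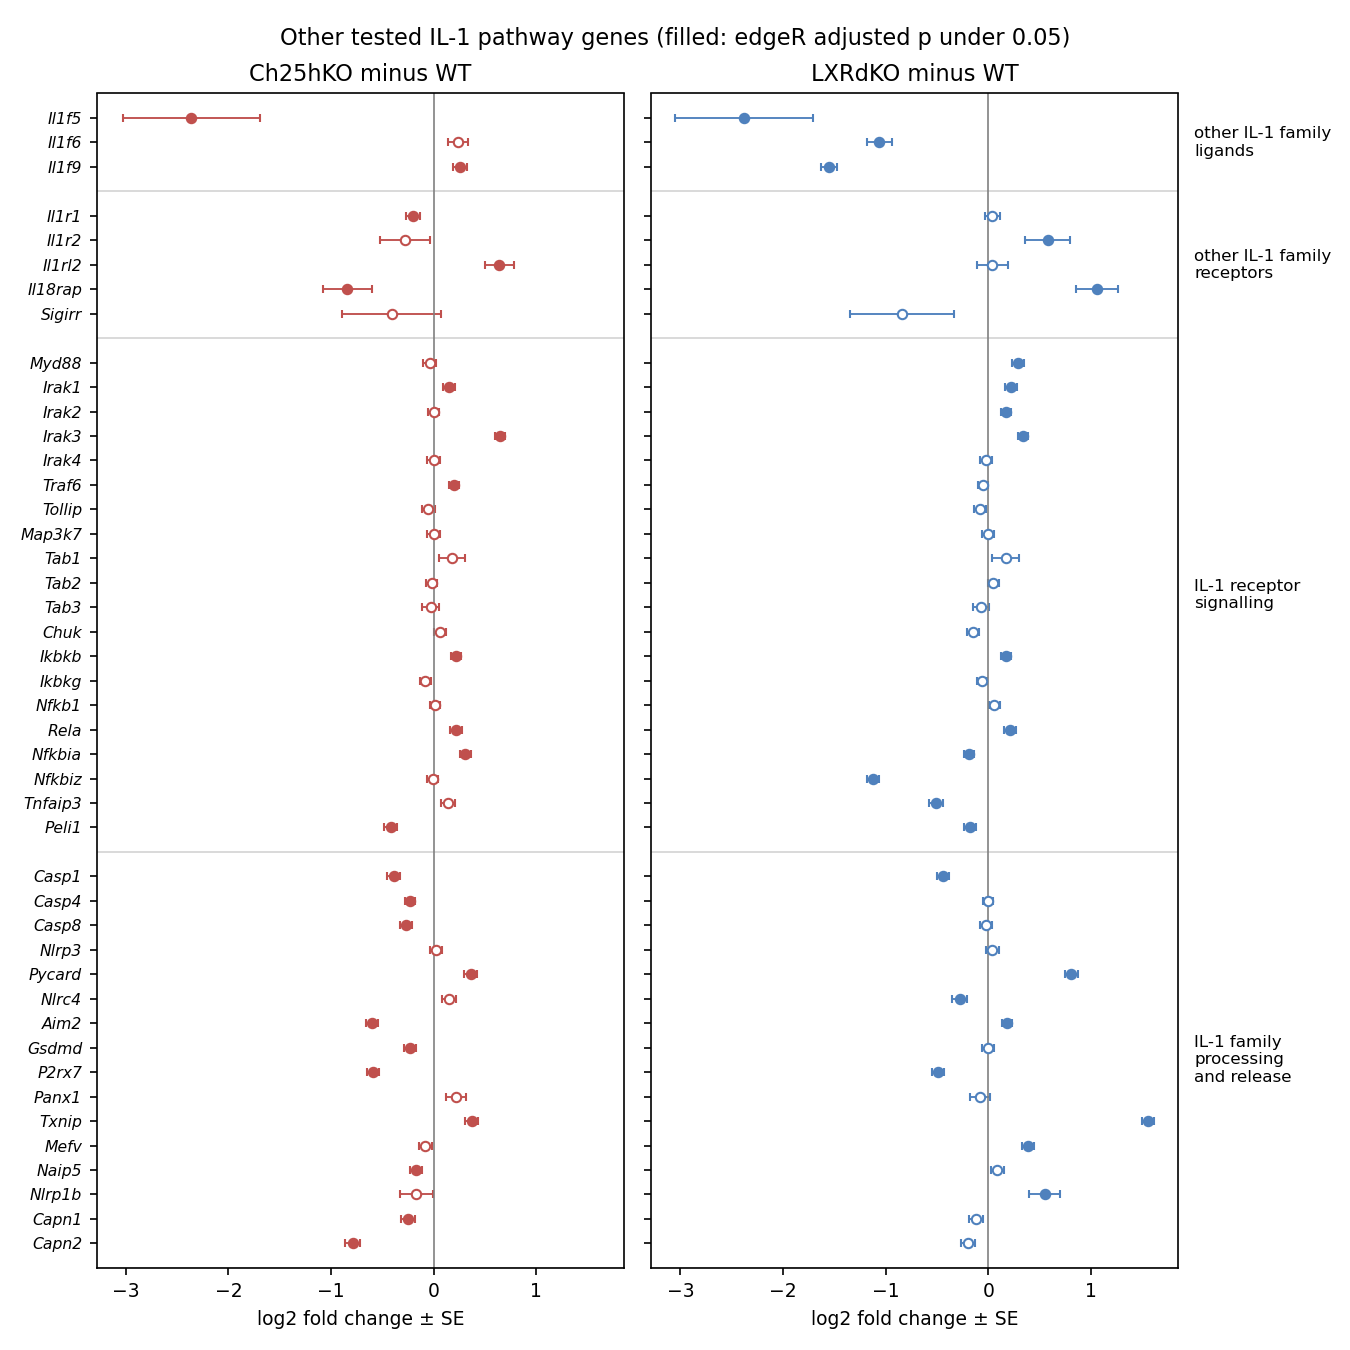
Log2 fold change, with its standard error, of 44 further tested genes of the pathway in Ch25hKO minus WT and LXRdKO minus WT, grouped as other ligands, other receptors, receptor signalling, and processing and release. Filled points have an edgeR adjusted p under 0.05. Il1f9 (-1.55), Il1f6 (-1.06) and Nfkbiz (-1.12) lie well below 0 in LXRdKO, where Txnip (1.56) lies furthest above it. Il1f5 lies furthest below 0 in both comparisons. It passed the filter only through its WT counts, so its filled points are not read as calls.

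The genes whose profile over the 6 libraries was nearest to that of Il1b were Eif4ebp1, Gpcpd1, Cep57, Clec4e and Dnajc1. Nearness was the root mean square distance between log2 CPM profiles centred on their own mean, over 7637 named genes with a mean of at least 5 CPM, and it was 0.0296 for Eif4ebp1 and 0.0362 for Dnajc1. Clec4e, which encodes the receptor Mincle, had means of 5203 CPM in Ch25hKO, 3663 CPM in LXRdKO and 3451 CPM in WT. Group means of the others ranged from 19.2 to 199 CPM. This is a description of 6 libraries that share 1 pair of WT libraries, and the genes were picked for it.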

How the data were processed

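Values are whole-number read counts by gene symbol, not normalized, in the single table the authors deposited, with 1 column for each library. The submitters' processing notes name CASAVA, STAR 2.3.0, HTSeq and mm10. No annotation, counting mode or strand is given in the sources used here, so reads of overlapping genes may be assigned to either. RNA was amplified with an Ovation kit, per the labels' protocols, so reads are not independent molecules. edgeR 4.0.16 in R 4.3.3 was used: filterByExpr kept 12923 genes, libraries were scaled by TMM, and the 3 genotype means were estimated together by robust quasi-likelihood from all 6 libraries, which left 3 residual degrees of freedom. Genes were called at a Benjamini-Hochberg adjusted p under 0.05 over all tested genes. The SE is the log2 fold change divided by the square root of F. CPM used TMM-scaled library sizes. The test was checked on simulated counts drawn with the same spread for all genes and groups. That check therefore does not cover the unequal spread of the real groups. Alternatives were RLE and upper-quartile scaling, DESeq2 1.42.0, limma-voom (limma 3.58.1), no low-count filter, a floor of 5 CPM reached by 2 or more libraries, a fit to the compared libraries alone, a replicate block, and the omission of single libraries, where a lone library was assumed to vary like the other groups. Depth was 41650513 to 45872964 counts per library. Libraries of a group differed by more than sampling noise (chi-square per degree of freedom 4.95 in Ch25hKO, 4.13 in LXRdKO and 11.7 in WT). WT, the reference of both knockouts, thus had the widest spread. Lengths, positions and overlaps come from GENCODE M21 and upstream sequences from RefSeq, both GRCm38. The members and lists were chosen with earlier results of these data known. The genes named were all members, the targeted genes, the 4 genes of lowest p in each further list, and the 5 profiles nearest to Il1b. Tested genes with a start within 100 kb of a member were also named. Nlrp3, Il1f8, Il1f10, Il1rl1 and Il18r1, and the single marker genes of other cells, were named after their values were seen.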

Additional observations from a re-analysis of the deposited data

How the results depend on the processing

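Of 301 recomputed values of the 7 genes, 260 kept their direction and their side of the threshold, 28 lost a call, 12 gained one and 1 changed sign: Il1rn in LXRdKO against Ch25hKO came to -0.01 without Ch25hKO replicate 1 and to at most 0.14 without any other. The Il1b call in LXRdKO against WT was lost with RLE scaling (0.15), with a filter of 5 CPM (0.12), with only the libraries compared (0.15) and with the replicate block (0.16), and its value was 0.12 to 0.18 when single libraries were left out. In Ch25hKO, 1 gene of the 7 was called lower with only the libraries compared, and 1 to 3 without single libraries. In LXRdKO against WT, 2 were called higher with a filter of 5 CPM or only the libraries compared, and without single libraries 2 to 6 were called, 1 to 4 higher and 1 to 2 lower. Over all genes, leaving out single libraries gave 3259 (without Ch25hKO replicate 1) to 5228 calls in Ch25hKO against WT, 2490 (without LXRdKO replicate 1, with 2579 without LXRdKO replicate 2) to 4300 in LXRdKO against WT, and 3216 (without LXRdKO replicate 2) to 5744 between the knockouts. Il1r2 in Ch25hKO against WT ranged from -0.57 (without WT replicate 1) to 0.06 (without WT replicate 2). Il1f5 had 1 to 4 counts per library in the knockouts. Its difference between them ranged from -1.23 (without LXRdKO replicate 2) to 0.63 (without LXRdKO replicate 1), with 0.28 without Ch25hKO replicate 2. The cause was not tested.

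The labels do not say whether same-numbered libraries were paired, and a single difference per group cannot decide it. Deviations of same-numbered libraries correlated at -0.313 between Ch25hKO and WT, -0.0591 between LXRdKO and WT and 0.115 between the knockouts, over 8141 genes. With the replicate number as a block, 4, 5 and 5 of the 7 genes were called in these comparisons, against 4, 6 and 5 without it. A crossed block, chosen after seeing the data, called 5 of the 7 in Ch25hKO against WT and 5849 genes in all, against 5073. Il33, with 129 to 550 counts per library, is the member whose values depth limits most.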

Other observations

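Genes with a start within 100 kb of a member were read beside it. Those tested numbered 2 each for Il1b, Il1a and Il1rn, 7 for Il18, 4 for Il18bp and 1 for Il33. Il1b and Il1a shared theirs, and Il1rap had none. Over all tested genes, 39.3% were called in Ch25hKO and 31.8% in LXRdKO against WT. Pts, Sdhd, Tex12 and Pih1d2 near Il18, and Lrrc51 and Trpc2 near Il18bp, passed against WT in neither knockout. Near Il1a, the mitotic gene Ckap2l, 2.4 kb away, fell in LXRdKO (-1.39 ± 0.19, edgeR adjusted p = 2.05e-05) and did not pass in Ch25hKO (-0.27 ± 0.17, edgeR adjusted p = 0.216). Near Il33, Uhrf2 fell by 0.3 ± 0.05 in Ch25hKO and by 0.3 ± 0.05 in LXRdKO on the log2 scale (edgeR adjusted p = 0.000174 and 0.000238). Near Il18, Bco2, which overlaps it on the opposite strand, fell in Ch25hKO (-0.7 ± 0.11, edgeR adjusted p = 9.15e-05) and was at 0.16 ± 0.11 in LXRdKO (edgeR adjusted p = 0.258). Also near Il18, Timm8b, which encodes a mitochondrial import protein, rose in Ch25hKO (0.4 ± 0.09, edgeR adjusted p = 0.0022) and LXRdKO (0.36 ± 0.09, edgeR adjusted p = 0.00608). Dlat, on the same stretch, fell in LXRdKO (-0.18 ± 0.06, edgeR adjusted p = 0.0216) and did not pass in Ch25hKO (0.06 ± 0.06, edgeR adjusted p = 0.43). Near Il18bp, Numa1, which overlaps its end, fell in Ch25hKO (-0.3 ± 0.06, edgeR adjusted p = 0.000543), and Rnf121 fell in LXRdKO (-0.4 ± 0.09, edgeR adjusted p = 0.00301). Near Il1rn, Psd4 fell in Ch25hKO (-0.19 ± 0.05, edgeR adjusted p = 0.0106).

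Il1f5 and Il1f10, 59.9 and 45.7 kb from Il1rn on chromosome 2, both had low counts that were highest in WT. Il1f10 had 2 and 2 in Ch25hKO, 1 and 4 in LXRdKO, and 8 and 15 in WT. Its WT libraries stood above those of both knockouts.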
